A study of Sus scrofa with 30 samples.

Results

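Control pigs were followed from T1 to T2 through the liver RNA of 12 of the study's 30 pigs. The 12 were chosen by their sample titles alone: 6 pigs at T1 (3 of normal and 3 of low birth weight) and 6 unrestricted control pigs at T2 (again 3 and 3). T1 is day 76 in the sample labels and T2 is day 97, and the series text puts them 1 day earlier and 1 day later. Normal birth weight (N) meant 1.4 to 1.6 kg and low birth weight (U) meant 0.8 to 1.1 kg. At T2 the groups are NK and UK, where K stands for control feeding, and at T1 they are N and U, taken before any pig was restricted. All 12 were females that had been weaned at day 28 and then kept singly. The study's diet after weaning was 50% commercial feed, 30% rolled oats and 20% sucrose, at 16.3 MJ of metabolisable energy per kg, and its diet of the restriction period held 13.6 MJ per kg. No label used here states what the controls ate in each period, so the age of a pig and its diet cannot be told apart. Separate pigs were sampled at T1 and T2, and "change" below means the mean at T2 minus the mean at T1.

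The liver of a growing pig makes most plasma proteins, stores and releases glucose, handles dietary fat and sterols and makes bile acids and urea. After weaning it shifts from a fat-rich milk diet to a starch-rich one, and hepatocytes, the main liver cell, enlarge and become polyploid as the organ grows. Liver tissue also holds macrophages, endothelial, stellate and bile duct cells. In such whole tissue, fewer cells of a type and less RNA per cell cannot be told apart.

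Each array carried 60900 pig probes of 60 bases, and values are given as the log2 of a probe's signal minus the log2 of the 75th percentile of that array, so that 0 is the 75th percentile and a difference of 1 is a 2-fold change. The deposited files pair no probe with a gene, so probes are named by their design identifiers. The marker genes of liver cell types could not be looked up for the same reason, and the tissue label was not checked. Probes with consecutive numbers form runs of 3. Each row of the authors' deposited table carries a human protein identifier. In 95.8% of rows the values matched the median of 3 consecutive probes (within 0.05 root mean square on the log2 scale). For this, signals were quantile normalized within sets of arrays (T1, N at T2, U at T2, and T3), and the T1 arrays were left out of that count. With all arrays, 17583 runs could be tied to 1 row. The protein identifier of a run is the authors' own and is repeated here without a gene name.

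The sequences of 4 runs are shown because the results below turn on them: for each direction, the 2 runs that hold the called probes with the largest change, among probes whose T1 and T2 values do not overlap and that were well above background on at least 4 of 6 arrays at both times. They are the probe sequences in the deposited files, written 5′ to 3′. A probe is printed whole where at least 2 of its 3 forward reading frames have no stop codon, and otherwise 30 of its bases are printed, since the files do not say whether a probe lies in coding sequence.

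The run with the largest rise by that rule, given in the authors' table as ENSP00000409242, has these probes (bases 1 to 30):
PigEx0025850: gttgattctagaactgagtcttgtatagtg
PigEx0025851: agattgacattttaagtataacagttaagg
PigEx0025852: ccagtcacagttcataatcaagagatgaca

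The other rising run, ENSP00000358430, has these (bases 1 to 30):
PigEx0023734: agcccccagtgagcagtaacctaatttgtc
PigEx0023735: gtgggcatccaggtagaagacatttgtttt
PigEx0023736: ttcctaaggaccagcggggctgagccacta

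The run with the largest fall by it, ENSP00000341762, is printed whole because each probe has at least 2 frames without a stop:
PigEx0008616: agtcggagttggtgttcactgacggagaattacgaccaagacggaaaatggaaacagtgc
PigEx0008617: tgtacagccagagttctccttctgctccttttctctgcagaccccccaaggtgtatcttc
PigEx0008618: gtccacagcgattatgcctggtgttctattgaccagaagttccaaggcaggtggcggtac

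The other falling run matched no row of the authors' table, and its extent was set by taking consecutive called probes. Capitals mark AATAAA, the usual signal for cutting and polyadenylation near the end of a transcript, in bases 31 to 60 of its first probe; these letters occur in 4.79% of all probes on the array as printed on it.
PigEx0034974: caactgttgttttAATAAAagaagtttttt
PigEx0034975: aacaggattgaagggacctgttacagtggc
PigEx0034976: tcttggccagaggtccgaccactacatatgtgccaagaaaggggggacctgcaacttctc

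None of these 12 probes shares 20 bases with a probe outside its run, on either strand.

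The 12 arrays were alike in depth of signal, with 2 exceptions in pattern. The share of probes well above background was 65.1% to 69.8% at T1 and 62.1% to 67.0% at T2, lower at T2 by a mean of 2.94 percentage points (two-sided exact permutation test over 924 splits, p = 0.030; adjusted over 3 array measures, 0.091). The 75th percentile of the signal was 379 to 454 at T1 and 378 to 481 at T2. On the first principal component, 23.0% of the variance over the 12 arrays, U_T1 replicate 1 lay at −122 and N_T1 replicate 1 at −56.9, while the other 10 arrays lay between 9.93 and 28.5. All 6 T1 arrays were on slides 1 and 2 and read in scan 1. Of the T2 controls, NK replicate 1 and UK replicates 1 and 2 shared those slides and that scan. The other 3 T2 controls were on slides 4 and 5 in scan 2. On the second component (17.6% of the variance) these 3 lay at −48.3, −72.5 and −25.5, and the T2 controls of scan 1 at 6.36, 4.06 and −18.1. The T1 arrays lay between 34.6 and 54.6, except the 2 that stood apart, at −13.7 and −6.18. Time and scan are partly mixed along it, and their parts were not tested.

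Averaged over birth weight, 57 probes rose from T1 to T2 and 37 fell out of 41059 tested (0.229% called; limma with Benjamini-Hochberg adjustment over all probes, adjusted p under 0.05, n = 6 against 6). That is 0.139% of the probes tested for rises and 0.0901% for falls. Rises made up 60.6% of the calls, and 73.7% after quantile normalization or 71.7% after scaling each array by its median. Rises were between 0.48 and 2.98 on the log2 scale with a median of 1.10, and falls between −0.83 and −2.87 with a median of −1.39, while the median over all probes tested was −0.03. The 94 probes are fewer than 94 targets: linked by run or by a shared stretch of 20 bases, they fell into 68 groups, of which 51 held 1 called probe and the largest held 5. Values of the 6 T1 pigs and the 6 T2 pigs did not overlap for 67 of the 94, as against 1.88% of all probes kept, a count that the calls themselves favour.

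The run PigEx0025850 to PigEx0025852 had the largest rise among the called probes above background on at least 4 of 6 arrays at both times. For PigEx0025852 the log2 values at T1 were −0.76, −0.52 and −0.12 in the normal birth weight pigs and −0.52, 0.00 and 0.24 in the low birth weight pigs. At T2 they were 1.59, 2.37 and 3.12 in NK and 0.83, 2.20 and 2.38 in UK. Every T2 pig was above every T1 pig, and replicate 1 of NK and of UK, both of scan 1, were the lowest at T2. The fitted change of PigEx0025852 was 2.36 ± 0.31 (SE; limma adjusted p = 0.0016). PigEx0025850 rose by 2.20 ± 0.36 and PigEx0025851 by 2.27 ± 0.38 (limma adjusted p = 0.010 for each), so the 3 probes of the run moved by the same amount within their errors. PigEx0025851 lost its call without NK_T2 replicate 3 (limma adjusted p = 0.053). With the T2 pigs of scan 1 alone the run's median was higher by 1.82 than at T1, and with those of scan 2 by 2.90.

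The run PigEx0023734 to PigEx0023736 rose by a similar amount. PigEx0023734 had log2 values of 1.74, 1.28 and 2.23 in N and 0.36, 1.16 and 1.83 in U at T1. At T2 its values were 3.45, 4.11 and 4.58 in NK and 2.82, 3.93 and 3.74 in UK. All 6 T2 pigs were above all 6 T1 pigs, and UK replicate 1 was the lowest of them. Changes of the 3 probes were 2.34 ± 0.39, 2.32 ± 0.40 and 2.21 ± 0.41 (SE; limma adjusted p = 0.011, 0.013 and 0.024). The T1 pigs spread as widely as the T2 pigs here, with SDs of 0.66 and 0.60 for PigEx0023734 (n = 6 each). Its call and that of PigEx0023735 were lost without N_T1 replicate 2 or NK_T2 replicate 3 (limma adjusted p up to 0.057 and 0.074). PigEx0023736 lost its call without any of 6 arrays (N_T1 replicates 2 and 3, U_T1 replicate 1, NK_T2 replicate 3, UK_T2 replicates 2 and 3; limma adjusted p up to 0.11).

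PigEx0008616 and PigEx0008618 had the largest falls among the called probes above background on at least 4 of 6 arrays at both times. PigEx0008616 went from 1.12, 1.12 and 0.56 in N and 1.02, 1.08 and 0.14 in U at T1 to −1.28, −0.54 and −3.38 in NK and −1.05, −3.19 and −2.71 in UK at T2. The 6 pigs at T1 lay within 1 log2 unit of each other and those at T2 spread over nearly 3. The fitted changes of PigEx0008616 and PigEx0008618 were −2.87 ± 0.47 and −2.79 ± 0.45 (SE; limma adjusted p = 0.010 for each). Both calls were lost with only the 12 arrays compared (limma adjusted p = 0.053 for each) and with slide as a block (0.052 and 0.051). The probe between them, PigEx0008617, was lower by 0.88 ± 0.29 and did not pass the test (limma adjusted p = 0.23); it was above background on 5 of the 6 arrays at T2. PigEx0008617 was also fainter at T1, with a mean of −2.93 against 0.84 for PigEx0008616 and 0.47 for PigEx0008618, and its mean at T2 was −3.81. A run of 3 probes that the authors summarised by a median thus held members with unequal levels and unequal fitted changes. The difference between the members was not tested.

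The run PigEx0034974 to PigEx0034976 fell by about the same factor in each probe. The falls were 2.20 ± 0.44, 2.18 ± 0.46 and 2.11 ± 0.45 on the log2 scale (limma adjusted p = 0.032, 0.046 and 0.047). This run was made up of consecutive called probes, so that all 3 were called follows from how it was formed. PigEx0034974 had values of 5.29, 5.49 and 4.50 in N, 6.35, 5.37 and 4.15 in U, 3.48, 4.42 and 2.06 in NK and 2.11, 3.37 and 2.51 in UK. The highest T2 pig (NK replicate 2) was above the lowest T1 pig (U replicate 3), so the time points overlapped for this probe. U_T1 replicate 1, which stood apart on the first principal component, was also the highest pig here. Without it and N_T1 replicate 1 the falls were 1.88, 1.86 and 1.75 and none passed the test (limma adjusted p = 0.094, 0.13 and 0.13). Of the 12 arrays left out singly, PigEx0034974 lost its call without 8 (all but U_T1 replicate 3, NK_T2 replicates 1 and 2 and UK_T2 replicate 2) and the other 2 probes without 10 (all but U_T1 replicate 3 and NK_T2 replicate 2), with limma adjusted p up to 0.18.

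**Figure D1:**
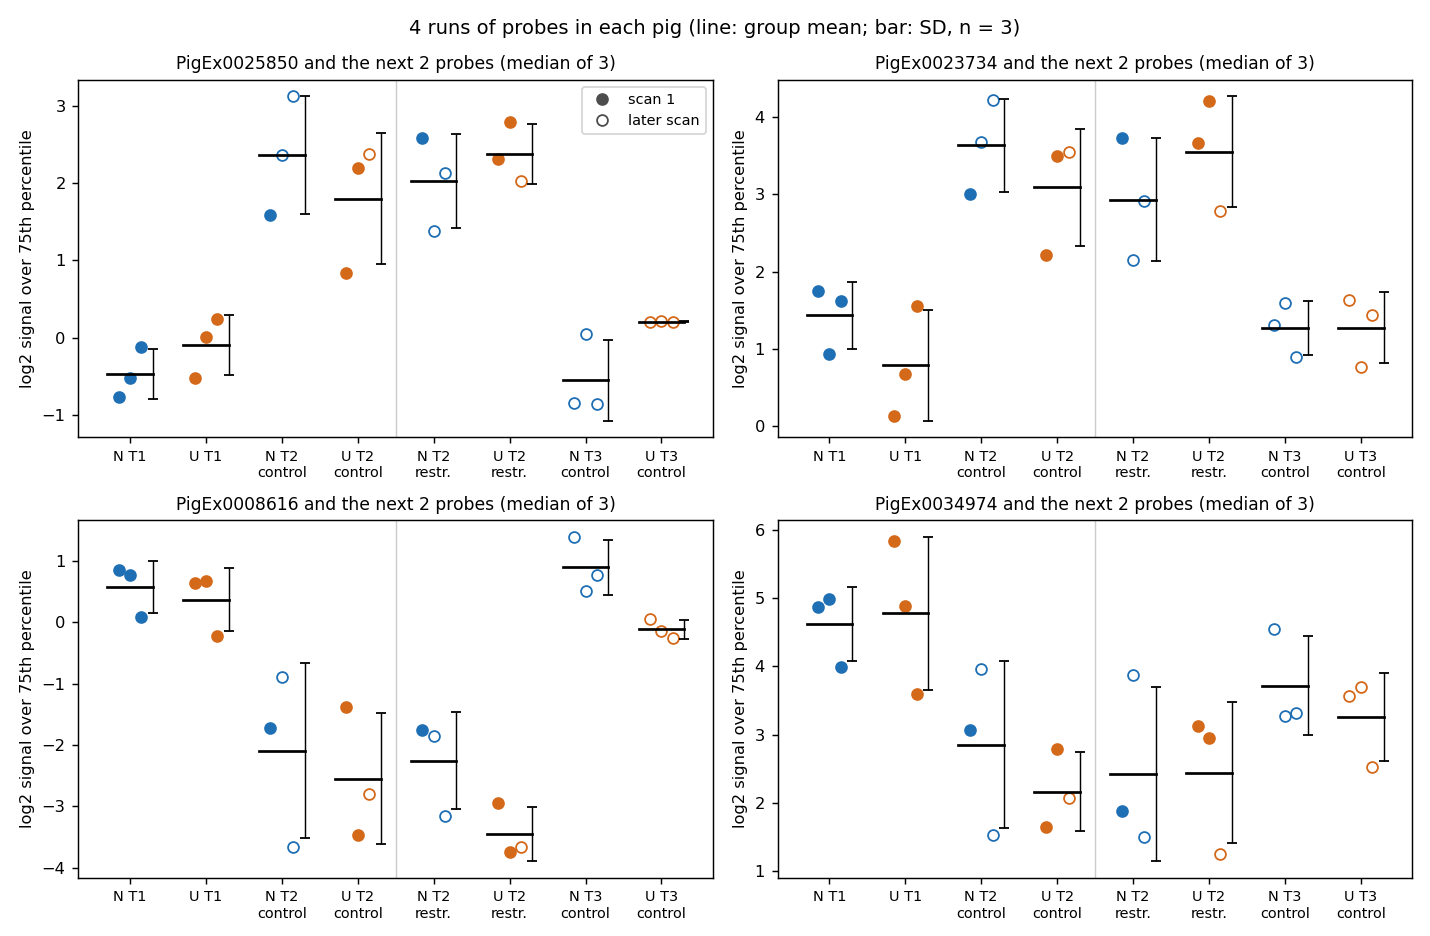
Median of the 3 probes of each run in every pig (vertical axes: log2 signal over the array's 75th percentile), by group, for T1, T2 controls, T2 restricted pigs and T3 controls; lines are group means, bars SD (n = 3), filled points scan 1 and open points later scans. The 6 T2 controls lie above the 6 T1 pigs for the PigEx0025850 and PigEx0023734 runs and under them for the PigEx0008616 and PigEx0034974 runs, except for an overlap in the PigEx0034974 run.

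The same runs are set beside the restricted pigs of T2 (NR and UR, fed 50% of the feed eaten ad libitum) and the controls of T3 to show where the T2 controls lay. The restriction lasted 3 weeks. T3 is after 5 weeks of refeeding, given as day 103 in the labels and 131 in the series text. The study's diet of the refeeding period held 14.1 MJ of metabolisable energy per kg. A comparison of these groups with T1 or with the T2 controls uses the same pigs again, so the means are placed side by side. The only test given is of restricted against control at T2, with that limit. The median of the PigEx0025850 run was −0.47 in N and −0.09 in U at T1, 2.36 in NK and 1.80 in UK, 2.03 in NR and 2.38 in UR, and −0.55 and 0.21 in the NK and UK pigs of T3. For the PigEx0023734 run these were 1.43, 0.79, 3.63, 3.09, 2.93, 3.55, 1.27 and 1.28 in the same order of groups. The restricted pigs of T2 lay near the controls of T2, and the T3 controls near the T1 pigs. The T3 controls were on slides 3, 4 and 6 in scans 2, 3 and 4, and none shared a slide or scan with T1. In NK_T3 replicate 1 only 55.0% of probes were well above background. The part of slide and scan in the T3 levels was not tested.

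The falling runs had the opposite order. The PigEx0008616 run had group means of 0.57 in N and 0.36 in U at T1, −2.10 in NK and −2.55 in UK, −2.26 in NR and −3.45 in UR, and 0.89 in NK and −0.12 in UK at T3. The PigEx0034974 run had 4.62, 4.77, 2.86, 2.17, 2.42, 2.45, 3.72 and 3.26 in that order, so its T3 controls lay between. Restricted minus control at T2 passed the test for none of the 12 probes shown (limma adjusted p = 0.97 or more for each of the 12). Of all 41061 probes tested, 0% were called. Differences lay between −0.76 ± 0.45 for PigEx0008618 and 0.30 ± 0.29 for PigEx0008617. The runs were chosen by the values of these same T2 controls, so the test is not independent of that choice.

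The levels of all 94 called probes are given in the same way. The median level of the 57 rising probes was −0.42 at T1, 0.94 in the T2 controls, 1.07 in the restricted pigs of T2 and −0.03 in the T3 controls. The median level of the 37 falling probes was −1.35, −2.48, −2.94 and −1.12 in those groups. Taken probe by probe, restricted minus control at T2 had the opposite sign to the order of these medians, with a median of −0.24 over the rising and 0.32 over the falling probes. These probes were chosen for a T2 that differs from T1, which places T2 apart by construction and carries over to any group set against it.

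The other probes of a run are counted next for rises and for falls, whose difference was not tested. A run with several called probes enters once for each. For a called probe in no matched run, only adjacent probes that were themselves called were taken as its run. Such partners, which favour agreement, are counted for PigEx0025296 to PigEx0025298, PigEx0041952 and PigEx0041953 among the rises. Among the falls they are counted for PigEx0034974 to PigEx0034976. Of the 57 rising probes, 50 had another tested probe in their run, and in 38 of these every such probe rose by at least 50% of the called probe's log2 change, while in 3 none did. Of the 37 falling probes 30 had another tested probe, and in 16 every one fell by at least that much, while in 11 none did. The median change of the other probes of a run was 1.04 beside the rising probes and −0.85 beside the falling ones. Over the array as a whole, 69.0% of the 9236 runs with 3 tested probes had all 3 changes in 1 direction, and 38 of the 43 such runs that held a called probe did.

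Most of the lone falls were faint at T2. The 11 falling probes without a partner had a median level of −3.96 at T1 and −6.18 at T2, and 6 of them were not well above background on any T2 array. The median change of the other probes in their runs was −0.24. Across all falls, 8 probes were below background on every T2 array; for 7 of them only a bound could be given, at least 1.30-fold to at least 2.37-fold lower (the T1 mean against, on each T2 array, the higher of the faintest signal well above background and the probe's own), and for the other the bound was under 1. By the same measure 1 rising probe, below background on all 6 T1 arrays and above it on 5 of 6 at T2, was at least 3.63-fold higher. A fitted change of such a probe depends on how the background was subtracted.

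**Figure D2:**
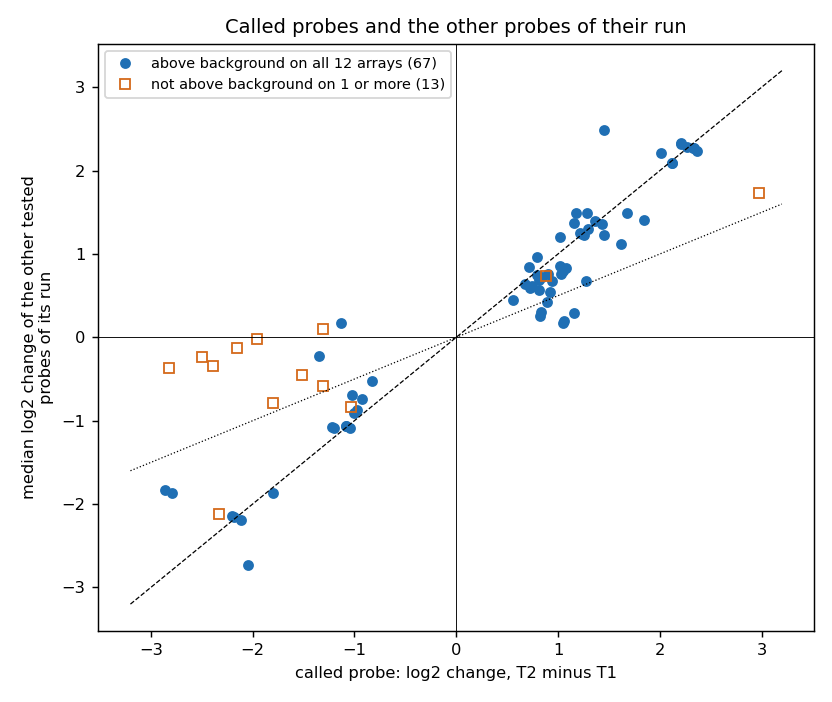
Log2 change of each called probe (horizontal axis) against the median log2 change of the other tested probes of its run (vertical axis), for the 80 called probes that had one; dashed line, equal change; dotted line, 50% of it; filled circles were above background on all 12 arrays. Rising probes lie mostly near the dashed line, and a set of falling probes drawn as open squares lies near 0 on the vertical axis. For called probes in no matched run, the other probes are adjacent called probes, which favours agreement.

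Taking the median of each run first, as the authors' table does, gave 23 runs that rose and 19 that fell of 11798 tested (0.356% called; limma adjusted p under 0.05; chosen as a unit after the data were seen). Of the 42 runs, 12 held no probe called by itself, and 39 had all their tested probes moving in the direction of the run. Rises lay between 0.55 and 2.36 and falls between −0.94 and −2.79, and 26 runs changed by 2-fold or more. The PigEx0025850 run rose by 2.36 ± 0.31 (SE; limma adjusted p = 4.0e-04), the PigEx0023734 run rose by 2.25 ± 0.40 (0.012) and the PigEx0008616 run fell by 2.79 ± 0.43 (0.0023). The 6 pigs of each time did not overlap in 26 of the 42 runs, against 1.85% of all runs.

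Within each birth weight few probes passed the test by themselves, with 3 pigs against 3. In normal birth weight 2 probes rose and none fell of 41061 tested (0.00487% called); of these PigEx0025852 rose by 2.83 ± 0.44 (limma adjusted p = 0.033). In low birth weight 1 probe was called, higher at T2, of 41059 (0.00244% called). It was PigEx0025296, which rose by 1.43 ± 0.18 (limma adjusted p = 0.0023). The same probe was the other call in normal birth weight, with a rise of 1.16 ± 0.18 (limma adjusted p = 0.033). The 2 calls in normal birth weight became 0 after scaling by the median, with no filter on dim probes, with only the T1 and T2 arrays or only the 12 compared, and without any of N_T1 replicates 2 and 3, U_T1 replicate 3, NK_T2 replicate 3 and UK_T2 replicate 2, and they became 1122 with array weights. The call in low birth weight became 0 after scaling by the median, with only the 12 arrays and within the 9 on shared slides, and 123 with array weights. At an unadjusted p under 0.05 there were 2670 probes in normal and 1981 in low birth weight, 6.50% and 4.82% of those tested. By runs, 6 passed in normal birth weight (3 higher, 3 lower; 0.0509% called) and 1 in low birth weight (higher; 0.00848% called).

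The change did not differ detectably between the birth weights. The limma test of the difference called 0 of 41059 probes (0% called), with 614 at an unadjusted p under 0.05, and 0 of 11798 runs. For PigEx0025852 the low birth weight change was smaller by 0.93 ± 0.62 (SE), with changes of 2.83 in N and 1.90 in U. PigEx0034976 had the opposite order, −1.53 in N and −2.69 in U, a difference of −1.16 ± 0.90. Neither difference passed the test, which does not show that the birth weights act alike.

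The pigs of the 2 birth weights are different animals, and their changes are set against each other here. They come from the same fit, so neither is a fully independent check of the other. Across all 41059 probes the change in normal and the change in low birth weight correlated at r = 0.40 (a description across probes, which are not independent; both sets of T1 arrays share slides 1 and 2), and 62.8% of probes had the same direction in both. The 100 probes with the smallest p in normal birth weight changed there by a median of 1.48 on the log2 scale; in the low birth weight pigs 94 of them had the same direction, with a median change of 0.47 and 36 of them by at least 50% as much. The 100 with the smallest p in low birth weight had a median of 1.40 there; 96 had the same direction in normal birth weight, with a median of 0.80 and 54 by at least 50% as much. Direction thus carried over between the birth weights more often than for all probes. The size was smaller in the birth weight whose change was not used to rank the probes. Its pigs still entered the choice, since each probe's p used a spread pooled over all arrays, and this can favour agreement. Each birth weight held a T1 array that stood apart on the same side of the first principal component. These were N_T1 replicate 1 at −56.9 and U_T1 replicate 1 at −122, and their part in the agreement was not tested.

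With the second birth weight read from scan 1 alone, where T1 and T2 shared slides and scan, the same lists gave 92 of 100 in low birth weight (2 T2 pigs; 61.2% of all probes) and 84 of 100 in normal birth weight (1 T2 pig; 52.3% of all probes). Median changes were then 0.54 and 0.53. Across all probes the correlation between the birth weights was then r = 0.37 and 0.15 in the same order, against 0.40 with all arrays. The lists themselves were chosen with the scan 2 arrays included.

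**Figure D3:**
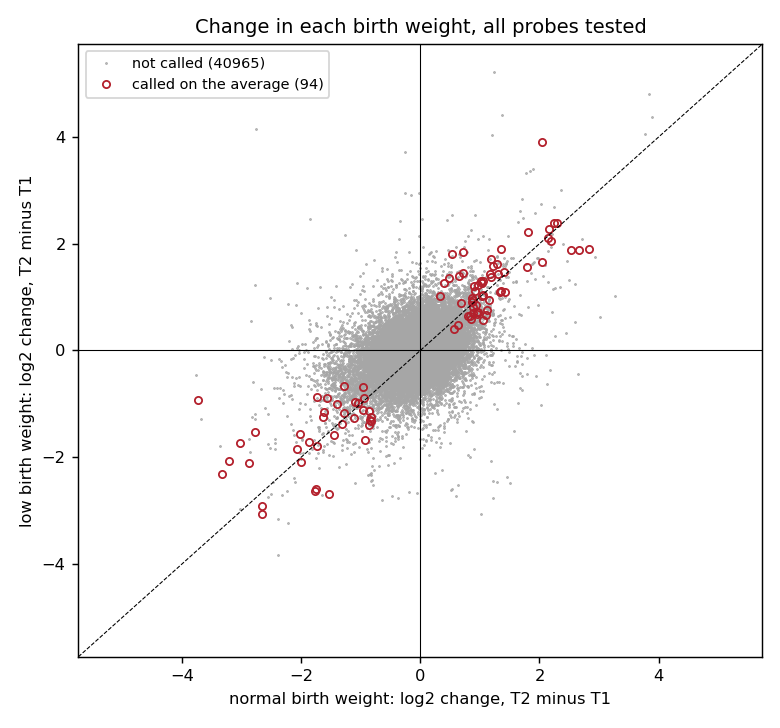
Log2 change from T1 to T2 in normal (horizontal axis) and low (vertical axis) birth weight for all 41059 probes tested, with the 94 called on the average in red; the dashed line marks equal change. The cloud leans along the dashed line, and the called probes, chosen on the average of the axes, lie where both changes have the same sign.

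The T2 arrays of the 2 scans are set apart here. All 94 called probes had the same direction with the 3 T2 pigs of scan 1 as with the 3 of scan 2, each set against the same 6 T1 pigs, which a choice on the mean of all 6 favours. The median rise was 1.01 in scan 1 and 1.21 in scan 2, and 48 of the 57 rising probes rose more in scan 2; the median fall was −1.44 and −1.69, and 19 of the 37 falling probes fell more there. Of the scan 1 arrays 2 are from low birth weight pigs and of the scan 2 arrays 2 are from normal birth weight pigs, so scan, slide and birth weight are partly mixed and their parts in the size of the changes were not tested.

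**Figure D4:**
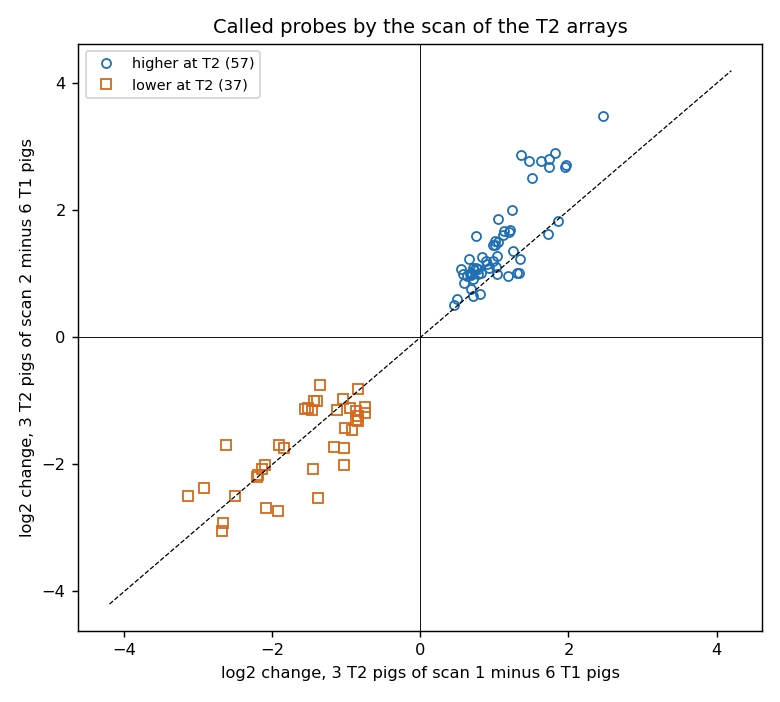
Log2 change of each called probe from the 6 T1 pigs to the 3 T2 controls of scan 1 (horizontal axis) and to the 3 of scan 2 (vertical axis); circles rose and squares fell, and the dashed line marks equal change. All 94 points have both changes in 1 direction, and 48 of the 57 circles lie above the line.

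The number of calls depended on single pigs and on the slide. Leaving out any 1 array gave between 14 and 131 called probes. Without NK_T2 replicate 3, the pig with the highest value of PigEx0025852 and the lowest of PigEx0008616, 14 probes remained, all of them among the 94; without N_T1 replicate 2 there were 16, also all among them. The arrays whose absence moved the count by over 1.5 times were, besides these, N_T1 replicate 3 (30), U_T1 replicates 1 and 2 (46 and 62), and UK_T2 replicates 1, 2 and 3 (40, 36 and 31). Without both U_T1 replicate 1 and N_T1 replicate 1, chosen after the data were seen, 131 probes were called, 54 of them among the 94.

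With slide as a block 55 probes were called, 28 of them among the 94; the run PigEx0025850 to PigEx0025852 and the run PigEx0023734 to PigEx0023736 still passed (limma adjusted p between 0.021 and 0.047). PigEx0008616 and PigEx0008618 then had changes of −2.73 and −2.62 without passing, and the PigEx0034974 run did not pass (0.096 to 0.11). Within the 9 arrays on slides 1 and 2, with slide as a block, 1 probe was called, none of the 94, and the changes kept their direction and most of their size: 1.64 to 1.87 for the PigEx0025850 run, 1.85 to 2.04 for the PigEx0023734 run, and −2.61 for both PigEx0008616 and PigEx0008618 (limma adjusted p between 0.21 and 0.37 for these 8 probes). The runs of these probes had been chosen with the same 9 arrays included, which favours a kept direction. With runs of 3 probes, leaving out 1 array gave 8 to 48 calls, the lowest without NK_T2 replicate 3. The slide block gave 37, of which 17 were among the 42.

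**Figure D5:**
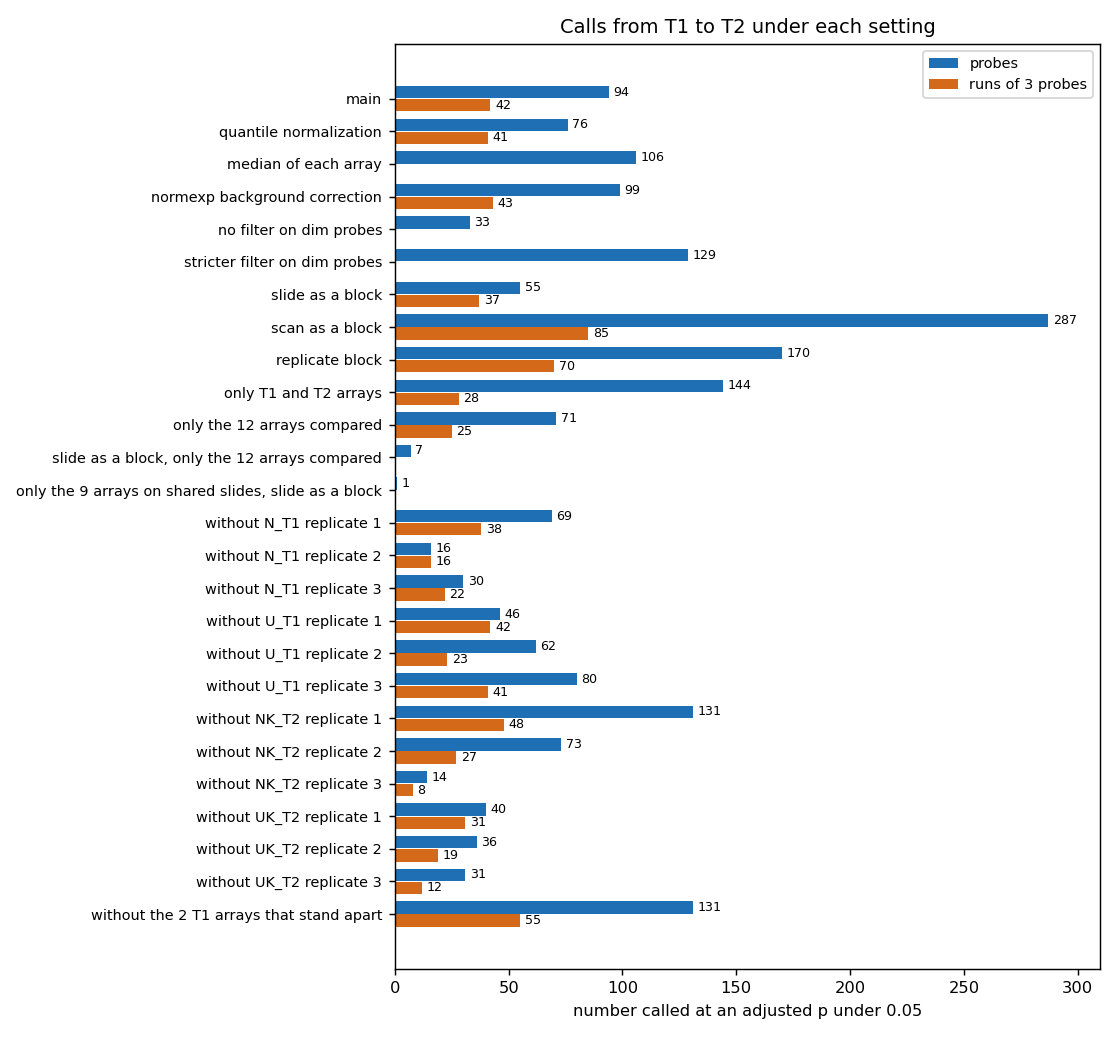
Number of probes (blue) and of runs of 3 probes (orange) called from T1 to T2 on the average of the birth weights under each setting (limma adjusted p under 0.05); the fit with array weights, with 2887 probes, is left off, and a missing orange bar was not run. Bars range from 1 probe within the 9 arrays on shared slides to 287 with scan as a block.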

How the data were processed

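Liver RNA of each pig was labelled with Cy3 and hybridised to 1 Agilent array, per the labels' protocols. The scanner files hold the processed signal, an intensity; per the file headers, Feature Extraction 10.5.1.1 had subtracted the background and detrended it. The deposited table of intensities was used only to tie probes to protein identifiers. In it, the 3 N_T1 columns carry replicate numbers in another order than the scanner files, which are followed here; the other 27 match.

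The log2 signal minus the array's 75th percentile (no spot saturated; outlier spots missing) was fitted in R 4.3.3 with limma 3.58.1 (lmFit, contrasts.fit, eBayes), a mean per group over all 30 arrays. A probe entered if, in some group, each of its 3 arrays measured it well above background (41061). P-values are two-sided and Benjamini-Hochberg adjusted over all probes. The fit was tested on simulated data with independent noise for each probe. That simulation held no slide or scan effects and no link between probes of a run, so it does not bear on these. Precision is limited by having 3 arrays in a group.

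The rule for naming took, per direction, the called probes with the largest change. Their 6 and 6 values do not overlap, and they are well above background on at least 4 of 6 arrays at both times. Their whole runs are shown, a unit chosen after the data were seen. Where a probe matched no row of the authors' table, its run was the consecutive called probes around it. Called probes with only a bound are given by counts. Gene and marker lists could not be matched to probes and were not used. Members and lists were chosen with earlier results of these data known. Alternatives were 13 other settings, each array left out, and 2 kinds added afterwards (runs of 3 probes; the 2 arrays standing apart left out). The values of some called probes are not reported here.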

Additional observations from a re-analysis of the deposited data

How the results depend on the processing

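The 12 probes shown kept their direction in every setting in which they were fitted. Their runs were chosen for large changes in these same arrays, which favours a kept direction. The difference between birth weights had 0 calls in every fit but 1. Calls are given here for the average, normal and low birth weight in turn, where they moved by over 1.5 times. Scaling by the median gave 0 in each birth weight, normexp 5 in normal, no filter on dim probes 33 on the average and 0 in normal, and the stricter filter 3 in low birth weight. Slide as a block gave 55 and 6, scan as a block 287, 10 and 10, and array weights 2887, 1122 and 123. Only the T1 and T2 arrays gave 144 and 0, and only the 12 arrays compared 0 in each birth weight. With the slide block in those 12 arrays there were 7, 6 and 2, and 5 for the difference between birth weights; with the 9 arrays on shared slides 1, 5 and 0. Leaving out 1 array gave 14 to 131 on the average, 0 to 3 in normal and 1 to 5 in low birth weight. For restricted against control it gave 0 among the 12 probes shown. For runs of 3 probes, scan as a block gave 85, the 12 arrays alone 25, and leaving out 1 array 8 to 48. The share of rises among the calls was 60.6%, and 73.7% after quantile normalization, 71.7% after scaling by the median; falls outnumbered rises with scan as a block (46.7% rises) and with array weights (47.9%), and the cause was not tested.

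The replicate block gave 170 probes, the 94 among them, and 70 runs. Deviations of same-numbered pigs correlated at −0.24 to −0.05 between N_T1 and NK_T2 and −0.06 to 0.07 between U_T1 and UK_T2, so the numbers were not taken to pair the pigs. PigEx0008617 passed in 1 of 25 settings, and PigEx0034975 and PigEx0034976 in 6 of 26 each.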
